A study of Homo sapiens with 5 samples.

Results

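H/ACA box small nucleolar RNAs (snoRNAs), the RNAs whose symbols begin with SNORA and a digit, were examined in RNA immunoprecipitation sequencing (RIP-seq) of the protein PSF in LTAD prostate cancer cells. They were taken by symbol from a table of 25702 genes. The table lists 107 of them, and the 95 with a count above 0 in any library are the members described here. The other 12 (SNORA7A, SNORA11C, SNORA11D, SNORA16B, SNORA17A, SNORA17B, SNORA35, SNORA36B, SNORA59B, SNORA70C, SNORA70D and SNORA70G) were listed at 0 in every library.

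LTAD is a single prostate cancer cell line, grown without phenol red in serum treated with charcoal and dextran. Cells received the DMSO vehicle or the compound No.10-3 at 5 µM. Of the 5 libraries, 2 were made from input RNA (1 from vehicle-treated and 1 from No.10-3-treated cells), 1 from PSF-RIP of vehicle-treated cells, and 2 (replicates 1 and 2) from PSF-RIP of No.10-3-treated cells. Which input column belongs to which treatment cannot be read from the column names. The inputs were therefore pooled into a single reference group and are called the deeper and the shallower input, so the spread between them also holds any effect of the compound. The labels of these samples give no control immunoprecipitation and give no culture for either treated library, so p-values measure only the spread between libraries, which may be technical.

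An H/ACA snoRNA folds into hairpins joined by a hinge that carries the H box, with the ACA box near its tail. Bound to dyskerin (DKC1), NHP2, NOP10 and GAR1, it pairs with a target RNA, most often ribosomal RNA, and directs the conversion of a uridine to pseudouridine. Most human H/ACA snoRNAs are released from spliced introns of host genes, and a few, such as the U17 RNAs SNORA73A and SNORA73B, act in cleavage of the ribosomal RNA precursor. PSF, the product of SFPQ, binds RNA in the nucleus and is a component of paraspeckles.

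The libraries held 1519362 to 4010376 gene counts, and the median tested gene had 16 to 105 counts in a library. The luminal prostate markers KLK3, KRT8 and KRT18 were counted in every library, KRT8 for example at 69.5 and 83.5 CPM (counts scaled to a common library size) in the inputs and 101 to 146 in the PSF-RIP libraries. The basal markers KRT5 and TP63 and the blood markers PTPRC and HBB were at 0 in all 5 libraries. The 6 basal and stromal markers together reached 27.7 and 26.6 CPM in the inputs and 46.1 to 62.1 in the PSF-RIP libraries, mostly COL1A1 and VIM. COL1A1 was higher than input with vehicle PSF-RIP (2.34 on the log2 scale, adjusted p = 0.00342) and with No.10-3 (1.77, adjusted p = 0.0153), and KRT18 with No.10-3 (1.38, adjusted p = 0.0209, edgeR's quasi-likelihood test with Benjamini-Hochberg adjustment). In the inputs, RN7SK, RPPH1, RN7SL1, RN7SL2 and RMRP, abundant small structured RNAs, took 51.7% and 55.0% of all counts, against 7.81% with vehicle PSF-RIP and 6.70% and 2.63% with No.10-3 PSF-RIP. Mitochondrial genes took 26.3% and 24.4% in the inputs, 6.91% with vehicle PSF-RIP, and 12.2% and 9.49% with No.10-3. The direction of many PSF-RIP differences from input depends on the scaling. The TMM scale used for levels below sets the bulk of genes level between libraries (median log2 difference of all tested genes, vehicle PSF-RIP over input, 0.03). Scaling to library totals puts that same median at 2.37.

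H/ACA snoRNAs took a larger share of all counts in the vehicle PSF-RIP library than in either input and by far the smallest share in the second No.10-3 library. The share was 0.647% (exact Clopper-Pearson 95% interval 0.639% to 0.655%) in the deeper input and 0.731% (0.721% to 0.740%) in the shallower. It was 1.81% (1.79% to 1.82%) with vehicle PSF-RIP, and 1.12% (1.10% to 1.13%) and 0.0965% (0.0932% to 0.0999%) in No.10-3 replicates 1 and 2. The intervals cover counting error only. The vehicle library and No.10-3 replicate 1 lay above both inputs, and replicate 2 lay below every other library, 0.140 times the mean input share. With 3 PSF-RIP libraries against 2 inputs, no exact two-sided permutation test can pass 0.05, and none was run.

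The order of the libraries changed when the abundant RNAs were left out of the total. Without mitochondrial genes and other small RNAs, the share was 3.56% and 4.16% in the inputs, 2.22% with vehicle PSF-RIP, and 1.44% and 0.111% with No.10-3. On the TMM scale the members summed to 16690 and 20001 CPM in the inputs, 9382 with vehicle PSF-RIP, and 6263 and 469 with No.10-3, so that all 3 PSF-RIP libraries lay below both inputs. The low level of replicate 2 held on every scale. Of 3368252 counts in that library 3251 fell on H/ACA members, against 16952 of 1519362 in the shallower replicate 1.

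**Figure D1:**
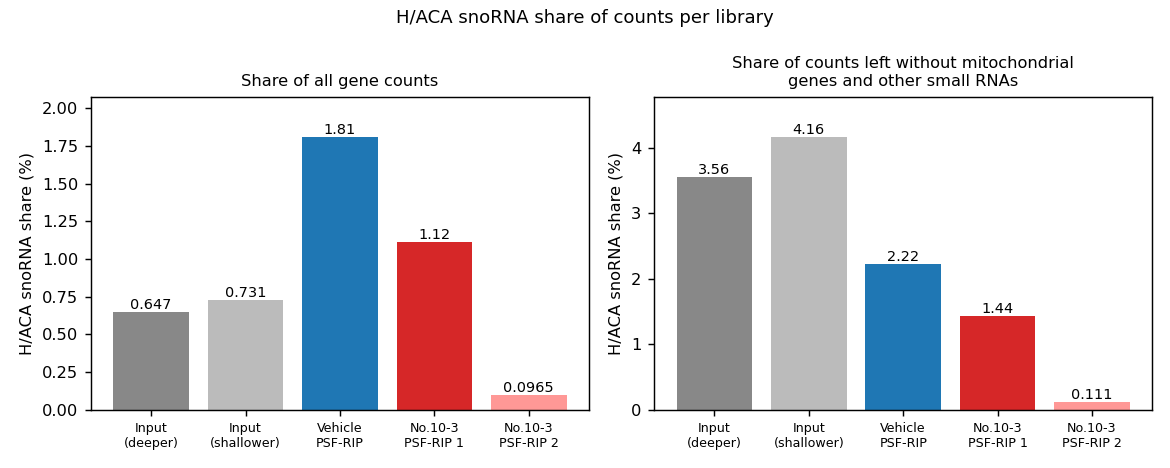
The y axes give the share of counts (%) held by the 95 H/ACA snoRNAs in each library, over all gene counts at the left and over the counts left without mitochondrial genes and other small RNAs at the right. Vehicle PSF-RIP stands above both inputs at the left (1.81% against 0.647% and 0.731%) and below them at the right (2.22% against 3.56% and 4.16%), and No.10-3 replicate 2 is lowest in both.

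Some other classes of short RNA were low in replicate 2 as well, and some were not. Box C/D snoRNAs (SNORD) took 0.163% of its counts, against 0.578% in replicate 1, 1.23% with vehicle and 1.18% and 0.357% in the inputs. Small Cajal body RNAs (SCARNA), which guide modification of spliceosomal RNAs, took 0.0691% in replicate 2, 0.351% in replicate 1 and 0.630% with vehicle. RMRP, an RNA of a ribosomal RNA processing enzyme, took 0.650%, 4.37% and 4.53% in the same order. RPPH1, by contrast, took 0.324% in replicate 2 and 0.238% in replicate 1, and RN7SL2 0.188% and 0.183%. The part of any wider difference in short RNAs in the H/ACA values was not tested.

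A few members held most of the H/ACA counts, and their order differed between input and PSF-RIP. SNORA81 was the most counted member of the inputs, with 28.3% and 32.9% of the H/ACA counts, and held 4.31% with vehicle PSF-RIP and 3.17% and 10.1% with No.10-3. The U17 RNA SNORA73B held 20.4% and 20.6% in the inputs, 17.6% with vehicle PSF-RIP, and 16.6% and 11.8% with No.10-3. SNORA63, also known as E3, went the other way from SNORA81, at 6.61% and 4.98% in the inputs, 15.2% with vehicle PSF-RIP, and 16.3% and 12.5% with No.10-3. Such shares do not depend on the scaling between libraries, and all 3 PSF-RIP libraries lay below both inputs for SNORA81 and above both for SNORA63. SNORA74A, also known as U19, held 7.77% and 6.49% in the inputs, 16.1% with vehicle PSF-RIP and 11.2% in replicate 1, but 5.08% in replicate 2, below both inputs. The counts were spread most widely in replicate 2, where 20 members each held more than 1%, against 14 in the other PSF-RIP libraries and 10 and 8 in the inputs.

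**Figure D2:**
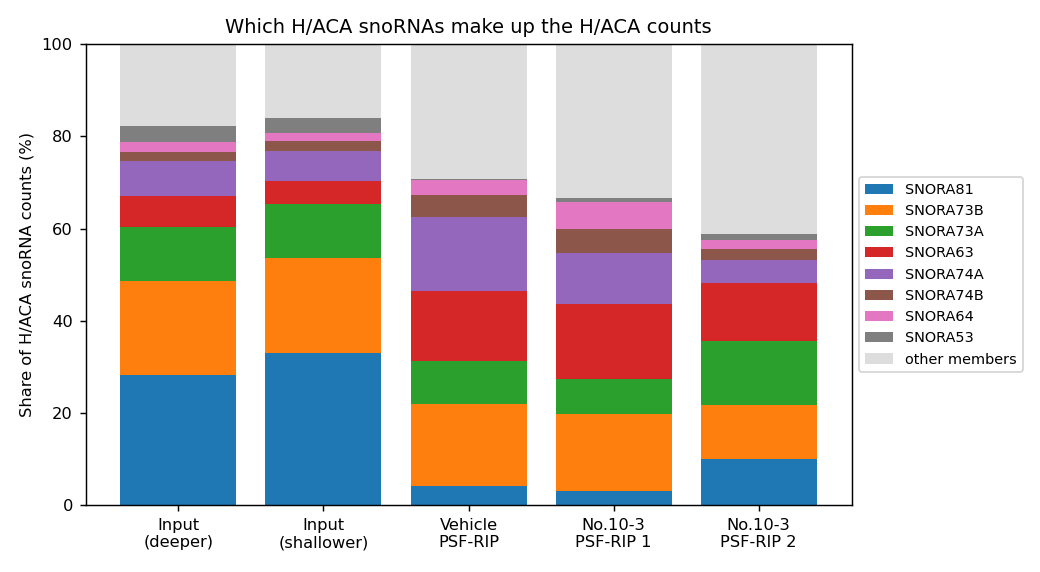
The y axis gives each named member's share (%) of the H/ACA snoRNA counts in the library on the x axis. SNORA81, the lowest block, takes 28.3% and 32.9% in the inputs and between 3.17% and 10.1% in the PSF-RIP libraries, and SNORA63 takes 6.61% and 4.98% against 12.5% to 16.3%.

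Of the 95 members, 85 had a mean of at least 1 CPM over the libraries and were tested among 13321 genes. Of the tested members, 3 had a mean input level under 1 CPM and passed this filter only through PSF-RIP libraries. The inputs agreed on the tested members: 8 of the 85 were at least 2-fold apart between the inputs, against 2154 of all tested genes. The vehicle library and No.10-3 replicate 1 were 2-fold apart at 13 members and 1333 of all tested genes. The No.10-3 replicates were 2-fold apart at 79 of 85 members and 2099 of all tested genes, with a median log2 difference of -2.45 (replicate 2 minus replicate 1). Over all tested genes that last median was 0.00. The members furthest apart between the replicates were SNORA64 (log2 difference -5.34) and SNORA23 (-5.32). SNORA26 (-0.22), SNORA15 (-0.59), SNORA16A (-0.63) and SNORA52 (-0.90), named after their values were seen, were among the closest.

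In the vehicle PSF-RIP library, few H/ACA snoRNAs passed the test against input on the TMM scale, and most of those were lower. SNORA60 was higher than input and SNORA53, SNORA46, SNORA15, SNORA81, SNORA69, SNORA12, SNORA13, SNORA11, SNORA62 and SNORA84 were lower by edgeR's quasi-likelihood test with Benjamini-Hochberg adjustment. That makes 1 of 85 higher and 10 of 85 lower, where 10.1% of all tested genes were higher and 10.4% were lower, so the lower count is near that of genes at large. The median member stood at a log2 difference of -0.22, against 0.03 for all tested genes, with members ranging from -4.92 to 2.89. The vehicle group has a single library, which was assumed to vary like the other groups. Without the deeper or the shallower input, 0 members were higher (2.24% or 0.356% of all genes) and 8 or 6 lower (612 or 284 of all genes). Without No.10-3 replicate 1 or 2, 5 were higher (18.7% or 18.3% of all genes) and 21 or 22 lower (18.7% or 19.1%). Scaled to library totals, 57 members were higher and 2 lower (73.0% and 0.375% of all genes), with a median of 2.13 against 2.37 for all genes, so the members' place below the typical gene was kept while the sign turned. The vehicle library lay above both inputs for 28 of 85 members (43.8% of all tested genes) and below both for 39 (40.5%), shares with no test.

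SNORA81 had TMM-scaled levels of 4728 and 6589 CPM in the deeper and shallower input, 404 with vehicle PSF-RIP, and 198 and 47.3 in No.10-3 replicates 1 and 2. Every PSF-RIP library lay more than 10-fold below both inputs. The log2 difference of vehicle PSF-RIP from input was -3.81 ± 0.78 (SE), adjusted p = 0.00148 in edgeR's quasi-likelihood test, and it was still lower on library totals, at -1.45 (adjusted p = 0.0381). SNORA53 had 549 and 677 CPM in the inputs, 20.2 with vehicle PSF-RIP, and 48.8 and 6.06 with No.10-3. Its groups did not overlap either, and its log2 difference with vehicle was -4.92 ± 0.81 (adjusted p = 0.000203, edgeR), the lowest of the members. It was also lower on library totals, at -2.56 (adjusted p = 0.00394, edgeR).

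The other lower members were scarcer. SNORA12 had 154 and 190 CPM in the inputs, 26.9 with vehicle PSF-RIP, and 18.8 and 3.46 with No.10-3. SNORA69 had 35.4 and 43.5 CPM in the inputs, 2.86 with vehicle, and 2.59 and 0.865 with No.10-3. SNORA13 had 34.1 and 44.4 CPM in the inputs, 7.38 with vehicle, and 4.80 and 1.73 with No.10-3. In each, all 3 PSF-RIP libraries were below both inputs, with vehicle log2 differences of -2.67 ± 0.62, -3.76 ± 0.69 and -2.40 ± 0.62 (adjusted p = 0.00356, 0.000611 and 0.00679 in edgeR). SNORA46 had only 6, 5 and 3 counts and SNORA15 only 3, 2 and 2 counts in the PSF-RIP libraries, against 49 and 20, and 16 and 13, in the inputs. Their log2 differences were -4.09 ± 0.79 and -3.86 ± 0.94 (adjusted p = 0.000945 and 0.00481, edgeR). SNORA62, also known as E2, had 37.9 and 53.3 CPM in the inputs, 13.6 with vehicle, and 8.13 and 1.59 with No.10-3, a vehicle log2 difference of -1.74 ± 0.61 (adjusted p = 0.0394, edgeR) that turned to 0.62 on library totals. SNORA11 and SNORA84 had adjusted p = 0.0243 and 0.0486 (edgeR). Of the 10 lower members, SNORA81 and SNORA53 alone also passed on library totals, where SNORA46 was at -1.76, SNORA15 at -1.55, SNORA69 at -1.42 and SNORA13 at -0.05. SNORA12, SNORA11 and SNORA84 were named because they passed, after their values were seen.

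On the high side, SNORA60 had 3 and 1 counts in the inputs, 47 with vehicle PSF-RIP, and 19 and 1 with No.10-3. Scaled to library totals, its inputs were at 0.748 and 0.324 CPM, under the filter of 1 CPM. It was thus tested only because of its level in PSF-RIP libraries. The vehicle library was highest, replicate 1 lay above both inputs and replicate 2 below both. Its log2 difference with vehicle was 2.89 ± 1.01 (adjusted p = 0.0383, edgeR), and the call rested on 4 input counts: without the deeper input adjusted p was 0.0655, and without the shallower 0.154. SNORA61 had 9.65 and 6.21 CPM in the inputs, 26.4 with vehicle, and 22.9 and 4.76 with No.10-3, a log2 difference of 1.71 ± 0.64 that did not pass (adjusted p = 0.0516, edgeR). SNORA27 had 76.5 and 110 CPM in the inputs, 202 with vehicle, and 185 and 7.64 with No.10-3 (1.12 ± 0.70, adjusted p = 0.252, edgeR). Both shared the pattern of a vehicle library and replicate 1 above the inputs with replicate 2 below them. SNORA14A, at 1.93, 1.78, 4.29, 5.17 and 0.144 CPM in the same order of libraries, had 3 and 2 counts in the inputs and did not pass. Scaled to library totals, both of its inputs were under 1 CPM, so SNORA14A too was tested only because of its level in PSF-RIP libraries.

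The most counted members did not pass between vehicle PSF-RIP and input, SNORA81 and SNORA53 apart. SNORA73B had 3400 and 4114 CPM in the inputs, 1648 with vehicle, and 1040 and 55.1 with No.10-3. SNORA73A had 1946 and 2383 CPM in the inputs, 878 with vehicle, and 471 and 64.7 with No.10-3. Both U17 RNAs lay below both inputs in all PSF-RIP libraries, at vehicle log2 differences of -1.19 ± 0.80 and -1.30 ± 0.70 (adjusted p = 0.294 and 0.179, edgeR). SNORA63 had 1104 and 995 CPM in the inputs, 1429 with vehicle, and 1018 and 58.5 with No.10-3. SNORA74A had 1297 and 1299 CPM in the inputs, 1511 with vehicle, and 702 and 23.8 with No.10-3. The vehicle library was highest for both, at log2 differences of 0.45 ± 0.72 and 0.22 ± 0.77 (adjusted p = 0.693 and 0.865, edgeR). Per kilobase of the table's length, which adjusts for length alone, SNORA81 had a mean input level of 31788 CPM and a vehicle level of 2270. SNORA63 had 7774 and 10588. SNORA63 was thus the lower of the pair in input and the higher in vehicle PSF-RIP.

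**Figure D3:**
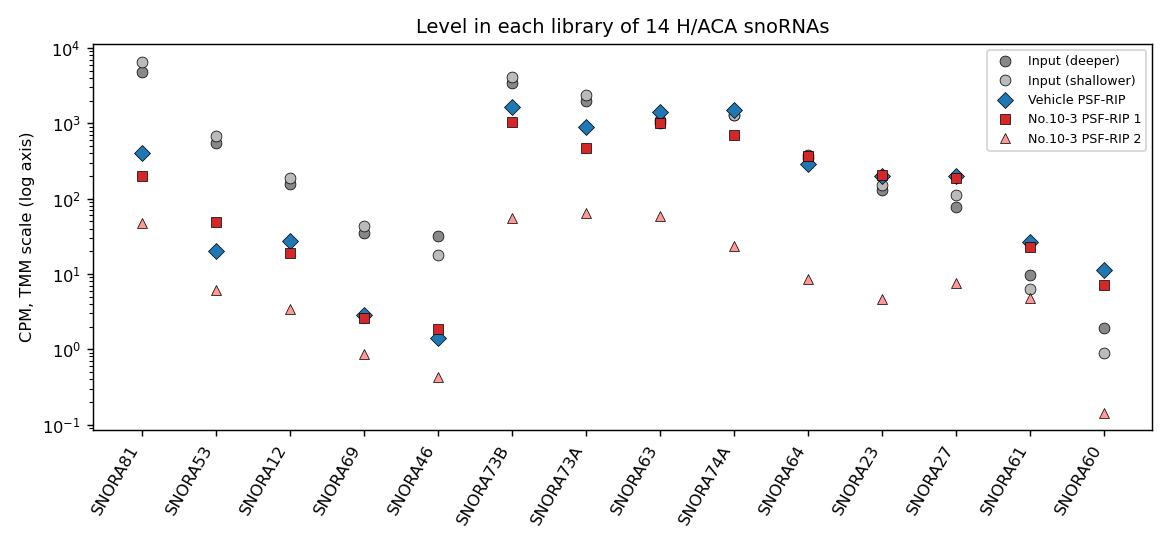
The y axis gives TMM-scaled CPM on a log axis for 14 members, with a point for each of the 5 libraries. SNORA81 (4728 and 6589 CPM in input, 404 with vehicle PSF-RIP) and SNORA53 (549 and 677 against 20.2) are already low in the vehicle library, while for SNORA63 and SNORA74A the low point is No.10-3 replicate 2 (58.5 and 23.8 CPM).

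With No.10-3, no member was higher in PSF-RIP than in input and 38 of 85 were lower, where 5.03% of all tested genes were higher and 6.51% lower (edgeR's quasi-likelihood test, Benjamini-Hochberg). The median log2 difference was -1.70, against 0.08 over all genes, and 81 of 85 members stood below 0. On library totals 13 were higher and 9 lower (86.5% and 0.398% of all genes), with a median of 0.60 against 2.42 for all genes, so again the sign turned and the place below the typical gene did not. Replicate 2 set the size of this difference. Without replicate 1, 79 members were lower (8.52% of all genes), with a median of -3.91. Without replicate 2, 3 were higher and 30 lower (15.5% of all genes in each direction), with a median of -0.73. Without the shallower input, 25 were lower (1.64% of all genes). DESeq2 called 16 lower and none higher (4.32% and 2.30% of all genes). At an unadjusted p under 0.05 edgeR gave 58 members, all 58 of them lower, among 3841 of the 13321 genes. The spread in these edgeR tests was drawn mostly from all tested genes. The No.10-3 replicates were 2-fold apart at 79 of 85 members and 2099 of the 13321 genes. The p-values of members may therefore be too small.

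Library by library, the vehicle library had 4 members at least 2-fold above the mean input and 21 at least 2-fold below, where 23.1% and 21% of all tested genes were. Replicate 1 had 4 above and 31 below (21.3% and 19.5% of all genes). Replicate 2 had 0 above and 84 of 85 below (13% and 11.1% of all genes). The members' medians were -0.21, -0.66 and -3.39 in that order, against 0.09, 0.07 and 0.14 for all genes. All 3 PSF-RIP libraries lay below both inputs for 37 members (25.1% of all genes) and above both for none (30.1% of all genes). Both No.10-3 libraries lay below both inputs for 55 members (27.1% of all genes) and above both for none (33.3% of all genes).

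**Figure D4:**
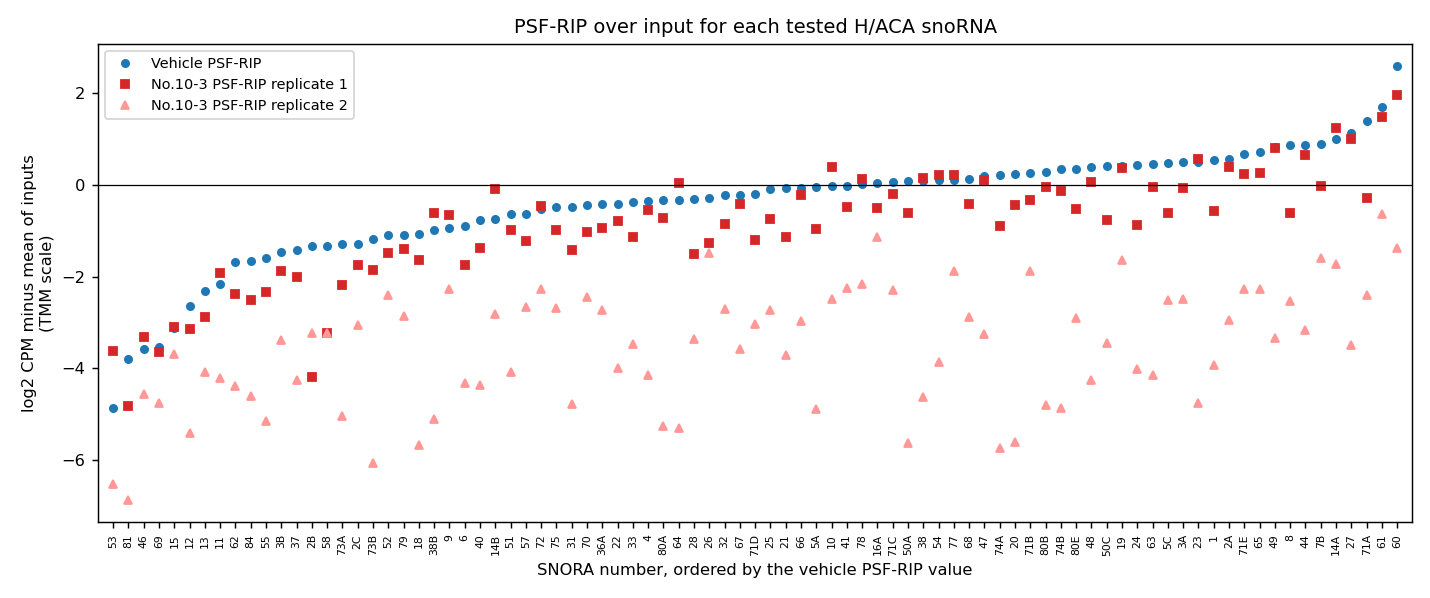
The y axis gives log2 CPM minus the mean of the inputs (TMM scale) for each of the 85 tested members, ordered by the vehicle PSF-RIP value. Circles (vehicle) and squares (replicate 1) run close together around or below 0, with medians of -0.21 and -0.66, and triangles (replicate 2) lie far lower, with a median of -3.39.

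The lower members with No.10-3 included the U17 RNAs, which had not passed with vehicle. SNORA73A had a log2 difference from input of -3.02 ± 0.58 (adjusted p = 0.000561) and SNORA73B of -2.78 ± 0.66 (adjusted p = 0.00517, edgeR). The fits share the input libraries, and passing in one and not in the other is no test of a difference between vehicle and No.10-3, which is given below. SNORA81 was at -5.53 ± 0.63 (adjusted p = 7.03e-08) and SNORA53 at -4.53 ± 0.59 (adjusted p = 9.35e-07, edgeR). SNORA24, at 60.5 and 43.5 CPM in the inputs, 70.0 with vehicle, and 27.7 and 2.60 with No.10-3, was at -1.89 ± 0.54 (adjusted p = 0.0187, edgeR), which turned to 0.39 on library totals. SNORA70, at 26.4 and 24.9 CPM in the inputs, 18.8 with vehicle, and 12.2 and 4.18 with No.10-3, was at -1.74 ± 0.49 (adjusted p = 0.0187, edgeR), which turned to 0.59. SNORA31 had 50.2 and 61.3 CPM in the inputs, 39.8 with vehicle, and 20.3 and 1.44 with No.10-3, and was at -2.50 ± 0.57 (adjusted p = 0.00346, edgeR). For these 3 members both No.10-3 libraries lay below both inputs. On library totals SNORA73A (-0.74), SNORA73B (-0.52) and SNORA31 (-0.20) no longer passed.

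With No.10-3 over input, members with few counts gave some of the lowest fitted values, beside the much counted SNORA81 (-5.53). SNORA58 had 9 and 5 counts in the inputs, 7 with vehicle and 0 in both No.10-3 libraries. Its mean input level was 16.4-fold, and its vehicle level 5.36-fold, above a floor of 3 counts over the treated pair. These ratios leave out the counting error of its few input and vehicle counts. With SNORA58 placed at this floor the median of the members stayed at -1.70 over input and -1.41 over vehicle. SNORA2B had 27 and 7 counts in the inputs, 16 with vehicle, and 0 and 4 with No.10-3 (log2 difference from input -4.81 ± 0.79, adjusted p = 6.78e-05, edgeR). Depth limits such members: 19 of the 95 had under 50 counts in all libraries together.

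Several members of long-known name did not pass in any comparison. SNORA64, SNORA65, SNORA66, SNORA68, SNORA74B and SNORA7B had log2 differences of -0.32 to 0.94 with vehicle over input and -1.37 to -0.58 with No.10-3 over input. SNORA64 had 376 and 344 CPM in the inputs, 288 with vehicle, and 369 and 8.51 with No.10-3. SNORA65 had 45.0 and 59.5 CPM in the inputs, 85.0 with vehicle, and 61.7 and 10.2 with No.10-3. In both, replicate 1 lay between or above the inputs and replicate 2 far below them. SNORA48 (172, 176, 228, 182 and 8.51 CPM), SNORA23 (131, 151, 200, 208 and 4.61) and SNORA49 (69.5, 71.9, 126, 124 and 6.49), given in the same order of libraries, had replicate 1 above both inputs and replicate 2 far below them.

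Between No.10-3 and vehicle PSF-RIP, 0 of 85 members and 0 of 13321 genes passed (0% of all tested genes in either direction) with edgeR's quasi-likelihood test and Benjamini-Hochberg adjustment. At an unadjusted p under 0.05, edgeR gave 847 genes, 46 of them members and all 46 lower with No.10-3. DESeq2 also called 0 genes, and 273 genes with 9 members at an unadjusted p under 0.05. The lowest adjusted p of a member was 0.612, for SNORA71A. The median log2 difference was -1.41 (0.04 over all genes), with 84 of 85 members below 0. Both No.10-3 libraries lay below the vehicle library for 69 of 85 members, where 32.4% of all tested genes did, and above it for none (33.3% of all genes). On library totals this median was -1.49 (0.05 over all genes), so the scaling mattered little between PSF-RIP libraries.

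The comparison turned on which treated library entered. Without replicate 1, 75 of 85 members were lower than vehicle (2.79% of all genes), with a median log2 difference of -3.60. Without replicate 2, 1 was lower (0.0456% of all genes), with a median of -0.53. SNORA63 was at -4.62 without replicate 1 and at -0.49 without replicate 2, against -1.41 ± 0.70 with both (adjusted p = 0.787, edgeR). SNORA81 was at -3.11 without replicate 1 and at -1.02 without replicate 2. Each leave-out has a single library per PSF-RIP group, assumed to vary like the inputs. The inputs were 2-fold apart at 8 of 85 members and the No.10-3 replicates at 79, so calls in these leave-outs do not measure the spread between PSF-RIP libraries. Recovery by the antibody and the cellular amount of a snoRNA cannot be told apart between PSF-RIP libraries, nor can fewer cells and less RNA per cell in such bulk samples.

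The members with the largest differences between No.10-3 and vehicle, SNORA58 and SNORA2B apart, were SNORA71A, SNORA71D and SNORA8. SNORA71A had 19.3 and 7.10 CPM in the inputs, 31.9 with vehicle, and 9.61 and 1.73 with No.10-3, a log2 difference from vehicle of -2.66 ± 0.61. SNORA8 had 22.5 and 16.9 CPM in the inputs, 36.2 with vehicle, and 12.6 and 2.88 with No.10-3 (-2.35 ± 0.56, adjusted p = 0.676, edgeR). SNORA71D had 8.36 and 5.33 CPM in the inputs, 5.71 with vehicle, and 2.59 and 0.288 with No.10-3. In SNORA71A and SNORA8, the vehicle library was the highest of the 5, and in all 3 both treated libraries lay below it. At the other end stood SNORA53 (0.39 ± 0.66), SNORA14B (-0.28), SNORA10 (-0.47), SNORA9 (-0.49) and SNORA64 (-0.62), none of which passed.

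A vehicle level above both inputs together with both No.10-3 levels below both inputs was found for 11 of 85 members, where 0.721% of all tested genes had that pattern on the TMM scale. They were SNORA74A, SNORA80B, SNORA20, SNORA50A, SNORA24, SNORA1, SNORA8, SNORA50C, SNORA80E, SNORA5C and SNORA16A, named after their values were seen. SNORA80B had 88.1 and 89.7 CPM in the inputs, 109 with vehicle, and 85.7 and 2.60 with No.10-3. SNORA20 had 63.7 and 79.9 CPM in the inputs, 83.8 with vehicle, and 52.8 and 0.865 with No.10-3. In both, the vehicle and replicate 1 values lay close to the inputs, and most of the distance came from replicate 2. This did not hold for all 11. The log2 difference of replicate 1 from vehicle was -0.34 for SNORA80B, -0.56 for SNORA16A, -0.66 for SNORA20, -0.69 for SNORA50A and -0.87 for SNORA80E. It was -1.10 for SNORA74A, SNORA1 and SNORA5C, -1.17 for SNORA50C, -1.32 for SNORA24 and -1.48 for SNORA8.

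By the RefSeq gene table (GRCh38.p14), 94 of the 95 members lie within the span of another gene, 74 in protein-coding hosts, 18 in long noncoding RNA hosts and 2 in transcribed pseudogenes, and 17 members lie in ribosomal protein genes or, for SNORA7B, a pseudogene of one. The table does not give strand, so a host is the shortest gene whose span holds the snoRNA. Reads from a snoRNA and from the unspliced intron around it are not separated in the counts. Over 60 hosts tested, 6 were higher and 13 lower with vehicle PSF-RIP than in input, where 10.1% and 10.4% of all tested genes were. With No.10-3, 2 hosts were higher and 15 lower, where 5.03% and 6.51% of all genes were (edgeR's quasi-likelihood test, Benjamini-Hochberg). The hosts' median log2 difference between No.10-3 and vehicle was -0.05, against -1.38 for the members they hold, and 76 of 81 members stood below their host. With vehicle over input, 49 of 81 stood below their host, and with No.10-3 over input 65 did.

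Members of the same host could differ widely. EIF4A2, a translation initiation helicase gene on chromosome 3, holds SNORA63, SNORA4 and SNORA81, with vehicle over input at 0.45, -0.37 and -3.81, and itself stood at 0.69. CNOT1, of the CCR4-NOT deadenylase, holds SNORA50A (0.08) and SNORA46 (-4.09) and stood at 0.36. KANSL2 holds SNORA2A (0.57), SNORA2C (-1.37) and SNORA2B (-1.66). SNHG11, a long noncoding RNA, holds SNORA60 (2.89) and SNORA71E (0.79). In EIF4A2 and CNOT1, the hosts with the widest spread with vehicle over input (4.25 and 4.17 log2 units), the spread between No.10-3 and vehicle was 0.46 and 1.12. In SNHG17 it was 1.51, against 1.31 with vehicle over input. Members of SNHG3, the host of both U17 RNAs, lay close together, at -1.30 and -1.19 with vehicle over input, and SNHG3 itself was lower, at -2.18 (adjusted p = 0.0046, edgeR). SLC25A3, a mitochondrial phosphate carrier gene on chromosome 12 that holds SNORA53, stood at -0.06. Members that share a host were named for that, after their values were seen.

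**Figure D5:**
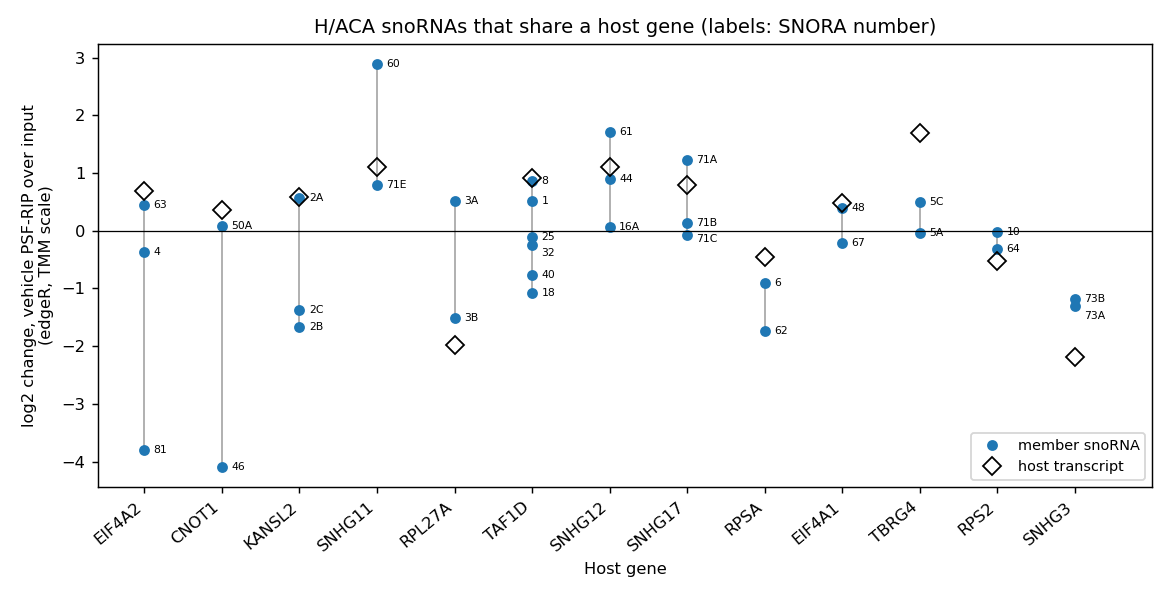
For each of the 13 hosts of more than 1 tested member, the y axis gives the log2 difference of vehicle PSF-RIP from input for its snoRNAs (filled circles, with the SNORA number) and for the host transcript (open diamonds). The widest gaps are in EIF4A2, between SNORA63 at 0.45 and SNORA81 at -3.81, and in CNOT1, between SNORA50A at 0.08 and SNORA46 at -4.09.

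Members with the same number and another letter may be related in sequence and share reads, which was not examined. SNORA71A to SNORA71E ranged from -0.29 to 1.23 with vehicle over input, and none passed. SNORA74A and SNORA74B stood at 0.22 and 0.34, and SNORA3A and SNORA3B at 0.52 and -1.52. SNORA73A and SNORA73B had values close to each other in every comparison above. The 8 members of 154 to 250 nucleotides, which held 63.0% of all H/ACA counts, had a median of -1.25 with vehicle over input and -2.90 with No.10-3 over input, and the 77 of 121 to 149 nucleotides had -0.11 and -1.68. The long members SNORA74A, SNORA74B and SNORA23 stood above input, at 0.22, 0.34 and 0.51 with vehicle. These lengths come with the counts, and RefSeq gave the same length for 92 of the 95 members. SNORA58, counted here among the shorter members at 137 nucleotides, has 236 in RefSeq, and SNORA73B has 158 and 205. The part of length in these values was not tested.

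With No.10-3, the messenger RNAs of the H/ACA proteins did not follow the snoRNAs. Their median log2 difference was 0.14 over input and 0.41 over vehicle, against -1.70 and -1.41 for the members. With vehicle over input both medians were -0.22. DKC1, GAR1 and NHP2 stood at 0.74, -0.28 and -0.15 with vehicle over input and did not pass in any comparison. NOP10 had 20.6 and 69.2 CPM in the inputs, 12.4 with vehicle, and 22.5 and 18.3 with No.10-3, and was lower with vehicle (-1.83 ± 0.59, adjusted p = 0.0255, edgeR). The inputs themselves were more than 3-fold apart for it. Of 14 genes of H/ACA assembly, transport and maturation, 1 was higher with vehicle over input, where 10.1% of all tested genes were. In the other comparisons 0 passed. The higher gene was RUVBL2, an ATPase of the assembly complex. RUVBL2 had 10.9 and 10.7 CPM in the inputs, 33.8 with vehicle, and 27.0 and 21.1 with No.10-3 (1.64 ± 0.52, adjusted p = 0.0241, edgeR). None of the 4 genes of box C/D proteins passed.

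TERC, the telomerase RNA, which carries an H/ACA domain, had 120 and 154 CPM in the inputs, 87.9 with vehicle, and 54.3 and 10.1 with No.10-3. On this TMM scale all PSF-RIP libraries lay below both inputs, with replicate 2 lowest. On library totals, vehicle PSF-RIP (369 of 2181770 counts) and replicate 1 (147 of 1519362) lay above both inputs. The inputs had 186 of 4010376 and 173 of 3083063, and replicate 2 stayed lowest (70 of 3368252). TERC was lower with No.10-3 than in input (-2.12 ± 0.48, adjusted p = 0.00338, edgeR), at -0.63 ± 0.57 with vehicle over input (adjusted p = 0.442) and at -1.49 ± 0.54 with No.10-3 over vehicle (adjusted p = 0.782). Box C/D snoRNAs and small Cajal body RNAs were also low with No.10-3 over input, where 6.51% of all tested genes were lower and 5.03% higher. Of 115 tested C/D snoRNAs, 21 were lower and 0 higher (median -1.28), and of 23 SCARNAs, 18 were lower and 0 higher (median -2.40). Their medians between No.10-3 and vehicle were -1.22 and -1.24, near the -1.41 of the H/ACA members, and the classes were not tested against one another.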

How the data were processed

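RNA of LTAD cells was measured by RIP-seq in 5 libraries. The authors deposited 1 table of whole-number gene counts with gene lengths and FPKM. The counts were taken as raw, and FPKM was not used in any result. TopHat2 2.1.0, Bowtie2 2.2.6, Bowtie and hg19 are named per the submitters' processing notes. How reads were counted (tool, strand, multi-mapped reads, annotation) is not given in the sources used here. These bear on snoRNAs, which are short, mostly lie within other genes and can have related copies. A stranded Illumina TruSeq kit was used, per the labels' protocols, and a kit's size selection can lose short RNAs. No snoRNA sequence was used.

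Columns were matched to groups by name; No.10-3 columns do not say PSF and were matched by elimination. Genes averaging 1 CPM or more over the libraries were tested in 3 groups with edgeR 4.0.16 (R 4.3.3; TMM, quasi-likelihood, Benjamini-Hochberg, threshold 0.05), with 2 residual degrees of freedom. The prior degrees of freedom were 38.7, so the spread used for a member was drawn mostly from all tested genes. SE is the log2 difference over the root of F. Levels per library used a prior count of 2 for log2. DESeq2 1.42.0, other scalings and filters, and leaving out each library except vehicle PSF-RIP were alternatives. The script was tested on simulated data. A host was to lie on the strand of its snoRNA, but the RefSeq table gives none, so containment alone was used.

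Named members were the 10 most counted, the 5 highest and 5 lowest in each comparison, those of old U or E name, and lettered families. Members and lists were chosen with earlier results of these data known. The result of 1 further cell type marker is not reported here.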

Additional observations from a re-analysis of the deposited data

How the results depend on the processing

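Scaling decided the sign of the members' median of PSF-RIP over input, and the choice of treated library decided the size of the median in the No.10-3 comparisons. On library totals the vehicle comparison gave 57 members higher, 2 lower and a median of 2.13, and the No.10-3 comparison 13, 9 and 0.60. The members at least 2-fold above and below input became 69 and 5 with vehicle, 55 and 7 in replicate 1, and 1 and 48 in replicate 2, an alternative chosen after seeing the data. SNORA62 with vehicle turned to 0.62, and SNORA24 and SNORA70 with No.10-3 to 0.39 and 0.59. With vehicle over input, members called higher were 0 with DESeq2 size factors, 2 with no filter, 0 with DESeq2, 3 with the libraries of the 2 groups only and 0 with all PSF-RIP as 1 group. Members called lower were 5 with DESeq2, 16 with the 2 groups only and 24 with 1 group, whose median was -1.03. With No.10-3 over input DESeq2 called 16 lower. In either direction DESeq2 called 1664 of 13321 genes with vehicle over input and 883 with No.10-3 over input. With No.10-3 over vehicle, 5 were lower with no filter. The share of all genes is not given for the other settings in this list, nor for the 2-fold counts on library totals. Those counts alone are therefore no result about the members. Leaving out each library in turn gave 0 to 5 higher, 6 to 22 lower and medians of -0.23 to -0.14 (vehicle over input), 0 to 3 higher, 25 to 79 lower and -3.91 to -0.73 (No.10-3 over input), and 0 to 75 lower and -3.60 to -0.53 (No.10-3 over vehicle). The H/ACA share without mitochondrial genes was 0.878%, 0.967%, 1.94%, 1.27% and 0.107%, and without other small RNAs too 3.56%, 4.16%, 2.22%, 1.44% and 0.111%, in the order deeper input, shallower input, vehicle, replicates 1 and 2; the second was chosen after seeing the data. Of 255 values of 23 called results of named members under alternatives, 216 kept direction and call, 36 lost the call and 3 reversed. Causes not shown by an alternative's own construction were not tested. Depth limits members of few counts. No paired analysis was possible because the labels give the inputs no replicate numbers (a suffix in 1 column name matches no label) and vehicle PSF-RIP has 1 library.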
